A study of Mus musculus with 1 sample.

Results

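Fetal Leydig cells are the steroid-producing cells of the testis interstitium. In the control library they were taken as the barcodes with at least 1000 genes in which *Cyp11a1*, *Cyp17a1*, *Star* and *Hsd3b1* together held at least 0.2% of the UMIs (unique molecular indexes, each standing for 1 captured mRNA molecule). A barcode was left out when more than 4 of 8 Sertoli genes (*Amh*, *Sox9*, *Cst9*, *Aard*, *Tesc*, *Mro*, *Cldn11* and *Dhh*) or more than 4 of 6 germ genes (*Ddx4*, *Dazl*, *Pou5f1*, *Dppa3*, *Dppa5a* and *Utf1*) had a UMI. This gave 294 of the 4301 barcodes with at least 1000 genes, or 6.84% (exact binomial 95% interval 6.10 to 7.63%), out of 5421 barcodes in the matrix. The barcodes were thus chosen by their measured UMIs of these 18 genes. The levels of the 4 steroidogenic genes and every difference from other barcodes below are therefore a description, and no test was made.

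The study asked what the loss of *Nr5a1* from Sertoli cells does to the fetal testis. The control testes came from *Nr5a1* L2/L2 fetuses, which carry loxP-flanked *Nr5a1* but no AMH-cre transgene according to the methods, while the label gives the genotype as WT, and they were of a mixed C57BL/6 and 129/SvPass background. The 12 whole control testes were dissociated and pooled into 1 droplet library (10x 3′ kit v3), labelled embryonic day 14.5, although the study's text also names embryonic day 13.5, so there was 1 sample and no replicate. The mutant library was not analysed here.

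Leydig cells turn cholesterol into androgens. Luteinizing hormone or other signals that raise cAMP drive this in adult cells, whereas fetal mouse Leydig cells can produce steroids before the pituitary hormone is needed. STAR brings cholesterol to the inner mitochondrial membrane, where CYP11A1 cuts its side chain with electrons passed on by ferredoxin. HSD3B1 and CYP17A1 then act in the smooth endoplasmic reticulum to give androstenedione, and in the fetal mouse the last step to testosterone is known to take place in Sertoli cells, which carry HSD17B3.

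The 294 Leydig barcodes held 6681525 of the library's 72595083 UMIs. Their depth ran from 1877 to 143197 UMIs with a median of 18907.5, and the median number of genes was 4156.5. For comparison, 3 other sets of barcodes were formed from marker genes. The 2329 stromal barcodes (at least 5 of 8 stromal genes with a UMI, among them *Pdgfra*, *Nr2f2*, *Tcf21*, *Col1a2*, *Col3a1*, *Nr2f1* and *Sfrp1*, and a steroidogenic share under 0.2%) had a median of 10310 UMIs. The 1082 Sertoli-rich and 317 germ-rich barcodes (at least 5 of the Sertoli or of the germ genes) had medians of 14159.5 and 37966 UMIs. Mitochondrial genes took a median of 11.5% of the UMIs of Leydig barcodes, against 6.20% in stromal, 11.6% in Sertoli-rich and 8.82% in germ-rich barcodes. Ribosomal protein genes took 16.5% in Leydig and 24.5% in stromal barcodes. Levels are given as UMIs summed over the barcodes of a set per 1000000 UMIs of that set (CPM), with exact Poisson 95% intervals that cover counting error only, and they were not divided by gene length because only 3′ ends were read.

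The rule cut a nearly empty stretch of a long range. Of the 2879 barcodes that passed the Sertoli and germ limits, 1798 had no UMI of the 4 steroidogenic genes, 4 had a share between 0.1 and 0.2%, and 11 lay between 0.2 and 0.3%. The share in Leydig barcodes had a median of 2.63% and reached 5.71%, with 199 barcodes at 2% or more and 45 under 1%. The 3 barcodes just inside the limit had shares of 0.201, 0.220 and 0.227%, with 4, 6 and 1 UMIs of *Insl3* and 24, 14 and 3 UMIs of *Fdx1*. The 3 just outside had shares of 0.121, 0.149 and 0.188%, with 2, 1 and 0 UMIs of *Insl3* and 7, 7 and 6 UMIs of *Fdx1*. The Leydig barcodes are therefore a range cut at a limit rather than a separate type by construction, and the low end is sparse.

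**Figure D1:**
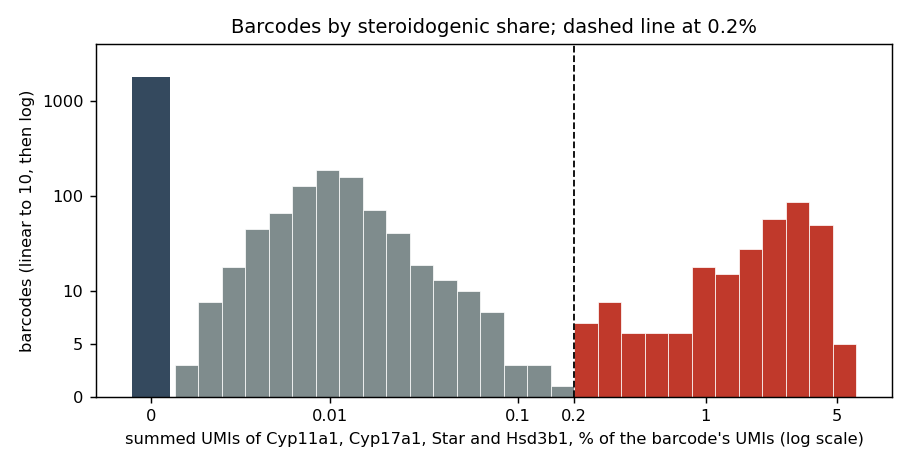
Number of the 2879 barcodes that passed the Sertoli and germ limits (y axis, linear to 10 and then log) by the share of UMIs in *Cyp11a1*, *Cyp17a1*, *Star* and *Hsd3b1* (x axis, percent, log scale), with barcodes at 0 in the bar on the left, Leydig barcodes in red and the dashed line at 0.2%. Few barcodes lie just under the line, and most of the 294 Leydig barcodes lie above 1%.

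The name was checked against Leydig markers that the rule did not use. Of the 14 of 15 further markers with at least 10 CPM in Leydig or in all other barcodes, 13 were at least 2-fold higher in Leydig barcodes and none was lower, with a median ratio of 9.99. Over all 9283 genes compared in this way, 849 (9.15%) were at least 2-fold higher and 2028 (21.8%) at least 2-fold lower, and the median ratio was 0.79998. A gene under 10 CPM in one of 2 sets could be compared only by being higher in the other, so counts are also given for genes with at least 10 CPM in both, which were 7186 of all genes (519 higher and 820 lower) and 10 of the further markers (9 higher). Among the markers *Gata4*, a transcription factor shared by all gonadal somatic cells, was the exception, at 60.2 CPM in Leydig and 78.6 CPM in other barcodes, and *Thbs2* was below 10 CPM in both. *Insl3*, the insulin-like hormone that guides testis descent and the defining peptide of Leydig cells, stood at 587 CPM (568 to 605) against 3.74 CPM in all other and 1.86 CPM in stromal barcodes, a ratio to all other barcodes of 157 (137 to 180). All other barcodes include the 12 that met the steroidogenic share but were left out for their Sertoli or germ genes. These 12 held 162 of the 230 *Insl3* UMIs there, and without them the level was 1.12 CPM and the ratio 525 (413 to 677). A Leydig barcode held between 0 and 63 UMIs of *Insl3* with a median of 11, and 287 of 294 had at least 1. After each barcode was thinned to 5000 UMIs, which 283 Leydig barcodes reached, 90.8% had an *Insl3* UMI, against 0.8004% of stromal barcodes. The *Insl3* gene lies at chr8:71689214-71690575 on the plus strand of GRCm38.

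Defining markers of other cells were low in Leydig barcodes. Macrophage genes *C1qb*, *C1qc* and *Adgre1*, endothelial *Tek* and the coelomic epithelium gene *Upk3b* had no UMI in the 294 barcodes. Over whole lists, the 10 endothelial genes summed to 21.9 CPM in Leydig and 145 CPM in all other barcodes and the 11 macrophage genes to 13.02 and 116 CPM, with *Egfl7* at 7.93 and *Fcer1g* at 5.99 CPM the most abundant in Leydig barcodes. The 8 Sertoli genes of the rule summed to 62.3 CPM against 7409 CPM in Sertoli-rich barcodes, and the 6 germ genes to 20.8 against 5869.7 CPM. These genes were used to form the sets, so both differences follow from the choice of barcodes. Stromal transcripts were present in most Leydig barcodes: the 8 stromal genes had a median sum of 871 CPM per barcode, against 4499.6 CPM in stromal barcodes, and 90 Leydig barcodes had at least 5 of them with a UMI. Of the 8, *Sfrp1* was higher in Leydig than in stromal barcodes, and without it the median sums were 482 and 4284 CPM. The 8 genes were used to choose the stromal barcodes, so the higher sums there follow at least in part from that choice.

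The electron chain and the remaining steroid enzymes were led by ferredoxin. *Fdx1* (chr9:51943306-51963556, GRCm38), which hands electrons to mitochondrial cytochromes P450, was at 4766 CPM (4714 to 4818) in Leydig and 100.1 CPM in all other barcodes, a ratio of 47.6 (46.3 to 49.0). Every Leydig barcode had a *Fdx1* UMI, with 1 at the lowest, 85.5 at the median and 694 at the highest. *Fdxr*, the reductase that charges ferredoxin, was at 1078 CPM against 116, whereas its level in Sertoli-rich barcodes was 299 CPM. *Por*, the electron donor of CYP17A1 in the endoplasmic reticulum, was at 205 against 30.2 CPM, and *Cyb5a*, which favours the androgen-forming step of CYP17A1, at 441 against 200.4 CPM. Of the 16 genes of this list that could be compared, 10 were at least 2-fold higher and 3 lower (median ratio 2.40). The shares over all genes were 9.15% and 21.8%. With at least 10 CPM in both sets, 8 of 12 were higher and 1 lower. Among the 4 genes of the rule, *Cyp17a1* stood at 12958 CPM, *Cyp11a1* at 9283, *Hsd3b1* at 2790.4 and *Star* at 1732, and a Leydig barcode held a median of 212, 169.5, 47 and 28 UMIs of them.

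The 17β-hydroxysteroid dehydrogenases differed in direction. *Hsd17b3* (chr13:64058266-64089230), whose enzyme makes testosterone from androstenedione, had 13 UMIs in 13 Leydig barcodes, a level of 1.95 CPM (1.04 to 3.33), near the 1.65 CPM of stromal barcodes. It was at 251 CPM in Sertoli-rich barcodes, 129-fold higher, with a UMI in 973 of the 1082 barcodes. *Hsd17b1* was likewise at 6.73 CPM in Leydig and 147 CPM in Sertoli-rich barcodes. In contrast, *Hsd17b7*, which acts in cholesterol synthesis and on estrone, was at 166 against 11.1 CPM in all other barcodes, and *Hsd17b12*, better known for fatty acid elongation, at 159.7 against 66.6 CPM. *Hsd11b2*, which inactivates glucocorticoid, was lower in Leydig (22.0 CPM) than in stromal barcodes (203 CPM). The aromatase gene *Cyp19a1*, *Hsd3b6*, *Hsd11b1* and *Cyp11b2* had no UMI in Leydig barcodes, where 3 UMIs would be 0.449 CPM.

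**Figure D2:**
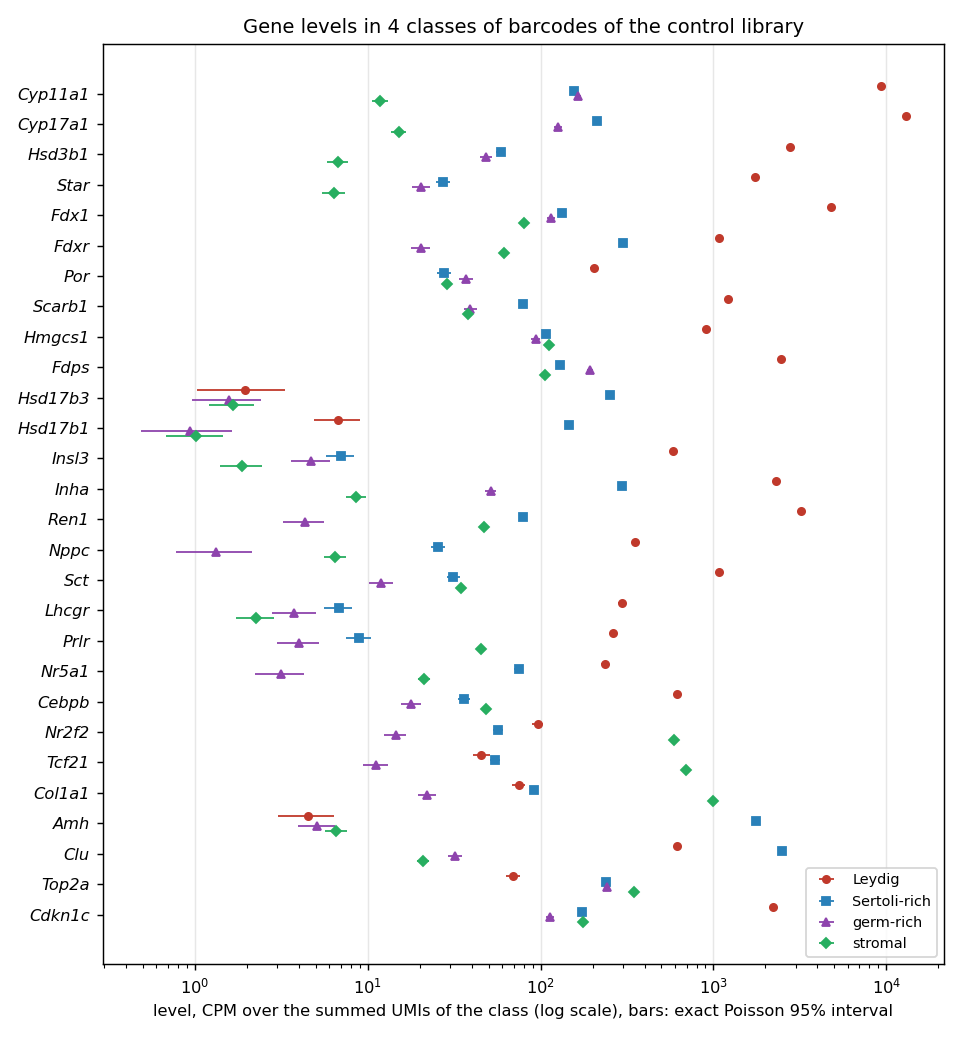
Levels (x axis, CPM, log scale) of selected genes of steroid production, cholesterol supply, hormones, receptors, transcription factors, stroma, Sertoli cells and the cell cycle (y axis) in Leydig, Sertoli-rich, germ-rich and stromal barcodes of the 1 control library, with bars for exact Poisson 95% intervals. *Insl3*, *Lhcgr* and *Fdx1* stand highest in Leydig barcodes, while *Hsd17b3*, *Amh* and *Clu* stand highest in Sertoli-rich barcodes.

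Genes of cholesterol synthesis were higher as a group. In Leydig barcodes 22 of 24 were at least 2-fold higher than in all other barcodes and none was lower, with a median ratio of 8.63, and 20 of the 22 with at least 10 CPM in both sets were higher. Against stromal barcodes the count was also 22 of 24 (20 of the 22 with at least 10 CPM in both sets) and the median ratio 8.02. Beside this, 1033 (11.4%) were higher and 1870 (20.6%) lower among the 9062 genes compared. Of the 7016 with at least 10 CPM in both sets, 568 were higher and 821 lower. *Fdps*, which makes farnesyl diphosphate, was the most abundant at 2465 CPM against 131, and its UMIs per barcode ran from 0 to 315 with a median of 42.5. *Hmgcs1*, at the start of the mevalonate pathway, was at 911 against 105 CPM and *Idi1* at 529 against 53.5. Among the sterol steps, *Lss*, which closes the ring system, was at 170.2 against 9.96 CPM, *Cyp51* at 532 against 48.4, and *Dhcr7* at 313 against 24.1. The exceptions were *Srebf2*, the gene of the transcription factor that drives the pathway, at 90.4 against 46.9 CPM, and *Insig2* at 26.3 against 21.0.

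Promoters of some of these genes are shown because the group was higher together. They are the 250 bases before the RefSeq transcription start in GRCm38.p6, which the table of promoters gave for 19 of the 24 genes. The pentamer CCAAT on either strand was in 17 of these 19 (89.5%), whereas 37.5% of the 27025 genes in the table had it. The sterol regulatory element was searched as TCACNCCAC on either strand, and it was in 1 of 19, *Hmgcs1*, and in 1.22% of all genes. The motifs were chosen after the levels were known, and a match of letters is not a measured binding site. The stretches are chr13:119690101-119690350 on the plus strand for *Hmgcs1*, chr13:8885356-8885605 (plus) for *Idi1*, chr5:4104698-4104947 (minus) for *Cyp51* and chr10:76531355-76531604 (plus) for *Lss*. They are written 5′ to 3′ on the strand of the gene, and capitals mark CCAAT or its reverse complement ATTGG and, in *Hmgcs1*, TCACCCCAC:
*Hmgcs1*: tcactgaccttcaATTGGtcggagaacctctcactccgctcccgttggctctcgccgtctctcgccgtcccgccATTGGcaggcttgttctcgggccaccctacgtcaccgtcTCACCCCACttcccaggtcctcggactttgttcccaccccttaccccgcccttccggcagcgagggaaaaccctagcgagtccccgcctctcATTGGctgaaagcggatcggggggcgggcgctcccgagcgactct
*Idi1*: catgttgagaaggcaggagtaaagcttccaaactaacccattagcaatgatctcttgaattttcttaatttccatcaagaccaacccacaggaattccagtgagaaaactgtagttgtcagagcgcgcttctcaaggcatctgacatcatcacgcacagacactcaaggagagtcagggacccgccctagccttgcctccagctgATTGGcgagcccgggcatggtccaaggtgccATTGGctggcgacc
*Cyp51*: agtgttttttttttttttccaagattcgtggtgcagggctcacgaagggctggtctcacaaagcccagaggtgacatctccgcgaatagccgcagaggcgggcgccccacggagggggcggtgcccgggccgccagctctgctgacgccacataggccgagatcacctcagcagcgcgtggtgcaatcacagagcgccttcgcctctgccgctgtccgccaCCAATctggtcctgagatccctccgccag
*Lss*: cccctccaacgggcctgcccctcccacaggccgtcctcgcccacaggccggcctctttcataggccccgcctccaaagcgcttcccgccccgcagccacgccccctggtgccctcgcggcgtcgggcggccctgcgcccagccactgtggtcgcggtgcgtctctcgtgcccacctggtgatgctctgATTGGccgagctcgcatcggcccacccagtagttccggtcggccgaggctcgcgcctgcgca
The ATTGG nearest to the start lay 45 to 41 bases before it in *Hmgcs1*, 14 to 10 bases in *Idi1* and 62 to 58 bases in *Lss*, and the CCAAT of *Cyp51* lay 29 to 25 bases before the start. *Hmgcs1* held 3 ATTGG, and its TCACCCCAC lay 137 to 129 bases before the start.

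Uptake of cholesterol was represented by *Scarb1*, the receptor for high-density lipoprotein, at 1208 CPM against 49.99 in all other barcodes. Its UMIs per barcode ran from 0 to 263 with a median of 14. *Stard4*, a cytosolic sterol carrier, was at 66.8 against 17.6 CPM and *Apoe* at 709 against 222. Of 17 genes of uptake, storage and transport compared, 6 were at least 2-fold higher and none lower (median ratio 1.63). Over all genes compared, 9.15% were higher and 21.8% lower. Of the 16 with at least 10 CPM in both sets, 5 were higher. *Tspo*, an outer mitochondrial membrane protein often used as a marker of steroid cells, was not among the higher genes, with 109 against 75.8 CPM. Lipid genes of the smooth endoplasmic reticulum had 11 of 17 higher and none lower (median ratio 3.42), and 9 of the 14 with at least 10 CPM in both sets. The desaturase genes *Fads2* and *Fads1* were at 716 against 40.7 and 329 against 39.7 CPM, and *Ephx1*, the microsomal epoxide hydrolase, at 247 against 3.41. Among 23 antioxidant and detoxification genes, 10 were higher and 3 lower, beside the same 9.15% and 21.8% of all genes. With at least 10 CPM in both sets, 9 of 22 were higher and 3 lower. *Gsta4*, which conjugates products of lipid peroxidation, was at 819.9 against 127 CPM, mitochondrial *Prdx3* at 424 against 94.2 and *Sod2* at 276 against 66.2, whereas *Gstm1* and *Gstm2* were lower, at 121 against 494 and 80.2 against 591 CPM.

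Among secreted factors, 5 of 15 genes compared were at least 2-fold higher and 6 lower, beside 9.15% and 21.8% of all genes. Of the 11 with at least 10 CPM in both sets, 3 were higher and 4 lower. *Ren1*, the renin gene (chr1:133350510-133360325), was the most abundant at 3222 CPM (3180 to 3266) against 44.2. Its UMIs per barcode ran from 0 to 541 with a median of 37.5, and 263 barcodes had at least 1. Strains of the 129 group, part of the background of these mice, carry the near-identical *Ren2*, whose reads cannot be told apart from those of *Ren1* here. *Agt*, which encodes the substrate of renin, was at 66.0 against 1.64 CPM, in 98 of the 294 barcodes, up to 30 UMIs. *Inha*, the alpha subunit of inhibin, was at 2313 against 96.3 CPM, and 8.57 CPM in stromal barcodes. Its beta subunit genes behaved differently: *Inhba* was at 146 CPM in Leydig and 171 CPM in stromal barcodes, and *Inhbb* at 41.2 CPM in Leydig and 168 CPM in Sertoli-rich barcodes. *Nppc*, the precursor of C-type natriuretic peptide, was at 354 against 10.3 CPM. The genes that were lower included *Pdgfa* at 6.29 against 133 CPM and *Igf1* at 7.03 against 45.8.

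Receptors went both ways, with 7 of 21 at least 2-fold higher and 9 lower, beside 9.15% and 21.8% of all genes. Among the 12 with at least 10 CPM in both sets, 2 were higher and 5 lower, beside 519 and 820 of all 7186 such genes. *Lhcgr*, the luteinizing hormone receptor gene (chr17:88716481-88791990), was at 294 CPM (281 to 307) against 3.84 in all other and 2.25 in stromal barcodes, with 0 to 30 UMIs per barcode and a median of 5. *Prlr*, the prolactin receptor, was at 264 against 24.7 CPM. The receptor genes of other hormones were sparser: *Crhr1*, for corticotropin-releasing hormone, was at 54.0 against 0.439 CPM, *Mc2r*, for adrenocorticotropic hormone, at 37.0 against 1.24, and *Esr1* at 19.2 against 5.17. *Fshr* had no UMI. The PDGF receptor gene *Pdgfra*, at 22.5 against 234 CPM in stromal barcodes, was one of the genes that chose those barcodes, so its difference follows in part from that choice.

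*Lhcgr* is shown because it is the gene of the luteinizing hormone receptor and one of 4 of the 12 Leydig marker and steroid enzyme genes found in the promoter table whose 250 bases held AGGTCA, the half-site of nuclear receptors, on either strand. The others were *Cyp11a1*, *Inha* and *Nr0b1*, and the share was 33.3% against 15.8% of all genes in the table. Capitals mark AGGTCA, which lay 122 to 117 bases before the start in the stretch chr17:88792015-88792264 (minus strand):
*Lhcgr*: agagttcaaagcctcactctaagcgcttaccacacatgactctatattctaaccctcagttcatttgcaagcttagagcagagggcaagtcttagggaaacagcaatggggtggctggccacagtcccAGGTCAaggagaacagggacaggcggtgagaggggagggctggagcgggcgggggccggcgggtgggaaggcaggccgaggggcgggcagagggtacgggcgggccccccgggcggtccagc
The 250 bases before *Insl3* held none of the 3 motifs in the exact letters searched. Variants of these letters were not searched, so a related site is not excluded there.

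Hedgehog signalling, by which DHH from Sertoli cells acts on interstitial cells, was read through 10 genes of the pathway. Against stromal barcodes 8 were at least 2-fold lower in Leydig barcodes and 1 higher (median ratio 0.271, beside 0.848 for all genes). Over all genes 20.6% were lower and 11.4% higher. With at least 10 CPM in both sets, 4 of 6 were lower and 1 higher. *Gli1*, a transcription factor induced by the pathway, was at 6.73 against 36.4 CPM, the receptor and target *Ptch1* at 49.8 against 159, and the co-receptor *Gas1* at 19.8 against 219. The co-receptor *Cdon* was the one that was higher, at 86.7 against 22.1 CPM, and *Hhip*, a decoy receptor, was at 50.4 against 50.5.

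Genes that pass on cAMP included 8 higher and 4 lower of 19 compared, beside 9.15% and 21.8% of all genes. With at least 10 CPM in both sets, 4 of 10 were higher and 0 lower. *Prkar2b*, a regulatory subunit of protein kinase A, was at 1389 CPM against 53.0, with 0 to 237 UMIs per barcode and a median of 24.5. *Prkar1a* was at 577 against 173 CPM, whereas *Prkar2a* was at 23.5 against 29.8 and the catalytic subunit gene *Prkaca* at 53.0 against 31.2. The phosphodiesterase genes *Pde8a* and *Pde8b* were at 44.5 against 11.8 and 32.2 against 3.56 CPM. *Gnas*, the stimulatory G protein gene, was at 2553 against 1455 CPM.

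Of 26 gonadal transcription factor genes, 6 were at least 2-fold higher in Leydig than in all other barcodes and 13 lower (median ratio 0.533). The shares over all genes were 9.15% and 21.8%. With at least 10 CPM in both sets, 4 of 17 were higher and 6 lower. *Nr5a1* (chr2:38692656-38714542), which is needed for gonad and adrenal formation and activates steroid enzyme genes, was at 236 CPM (224 to 248) in Leydig, 74.7 in Sertoli-rich, 21.1 in stromal and 3.14 in germ-rich barcodes. It had a UMI in 275 Leydig barcodes, from 0 to 36 with a median of 5, and in 66.4% against 9.69% of stromal barcodes after thinning. *Nr0b1*, the gene of the repressor DAX1, was at 30.1 against 7.13 CPM, *Gata6* at 157 against 63.7, and *Cebpb* at 614 against 39.8. Genes of stromal and coelomic factors were lower, with *Tcf21* at 45.5 against 693 CPM in stromal barcodes, *Nr2f2* at 96.2 against 592 and *Wt1* at 7.93 against 102. Of these, *Tcf21* and *Nr2f2* were used to choose the stromal barcodes, so their difference follows from that choice.

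The 25 genes with the highest ratio to all other barcodes among those with at least 50 CPM, leaving out the 4 of the rule, were *Ces1d*, *Insl3*, *C4b*, *Crhr1*, *Npy*, *Cyp21a1*, *Mal*, *Clps*, *Fam129a*, *Lhcgr*, *Hao2*, *Ren1*, *Ephx1*, *Oxtr*, *Mgarp*, *Slc45a3*, *Sez6l2*, *Cyp11b1*, *Fdx1*, *Jak3*, *6330411D24Rik*, *Agt*, *Adh1*, *Mrap* and *Sct*. Their ratios ran from 182 for *Ces1d*, a carboxylesterase gene, to 39.0 for *Sct*, the secretin precursor. Without the 12 barcodes left out for Sertoli or germ genes all 25 ratios were higher, from 45.8 for *6330411D24Rik* to 1056 (359 to 5148) for *Cyp21a1*, which then rested on 3 UMIs in all other barcodes. Several were spread widely over the barcodes: *Fam129a* had a UMI in 94.2%, *Sct* in 95.2%, *Hao2* in 84.4% and *Mgarp*, a mitochondrial protein gene, in 85.0%. Others were in fewer barcodes, such as *Npy*, the neuropeptide Y gene, in 53.4%, and *Clps*, the pancreatic colipase gene, in 55.8%. *Npy* ran from 0 to 144 UMIs with a median of 1, at a pooled level of 382 CPM. *Oxtr*, the oxytocin receptor gene, was at 66.0 against 1.01 CPM.

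Genes better known from the adrenal cortex were found in part of the Leydig barcodes. Of 10 such genes compared, 6 had at least 10 CPM only in Leydig and 2 only in all other barcodes, so that no count of higher genes is read from them. *Cyp11b1* (chr15:74834125-74841643), the 11β-hydroxylase gene of corticosterone synthesis, was at 110 CPM (102 to 118) in Leydig, 1.95 in all other and 0.0351 CPM (1 UMI) in stromal barcodes. The 12 barcodes left out for Sertoli or germ genes held 110 of its 120 UMIs in all other barcodes. It had a UMI in 94 of the 294 barcodes (32.0%, 26.7 to 37.6%) and up to 73 in 1 of them. After thinning, 16.3% of Leydig barcodes and 0 of 2249 stromal barcodes had one, and 0 allows a share of up to 0.133%. *Cyp21a1*, the 21-hydroxylase gene, was at 52.1 CPM (46.7 to 57.9) against 0.455 CPM, in 54 barcodes (18.4%), and in 11.3% after thinning to 5000 UMIs or 7.22% to 3000. *Cyp21a1* lies at chr17:34801348-34804561 beside *C4b* (chr17:34728380-34743882) in a duplicated stretch with near-identical copies, so that reads of either gene may be split between copies.

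The 94 barcodes with *Cyp11b1* had a median of 26954.5 UMIs and a median steroidogenic share of 3.41%, against 16232.5 UMIs and 2.13% in the 200 without. The lowest share at which *Cyp11b1* was seen was 1.65%, and none of the 45 barcodes under 1% had it. As read, 31 barcodes had both *Cyp11b1* and *Cyp21a1*, 63 only *Cyp11b1*, 23 only *Cyp21a1* and 177 neither, and at 5000 UMIs the numbers were 7, 39, 25 and 212. *Mrap*, the accessory protein that brings the adrenocorticotropic hormone receptor to the cell surface, was at 140 CPM in 71.4% of Leydig barcodes. *Shh* was at 10.5 CPM with no UMI in stromal barcodes, at least 99.4-fold higher than the level of 3 stromal UMIs. *Cyp11b2*, the aldosterone synthase gene, had no UMI in either set. A part of adrenal-type cells in these values was not tested.

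**Figure D3:**
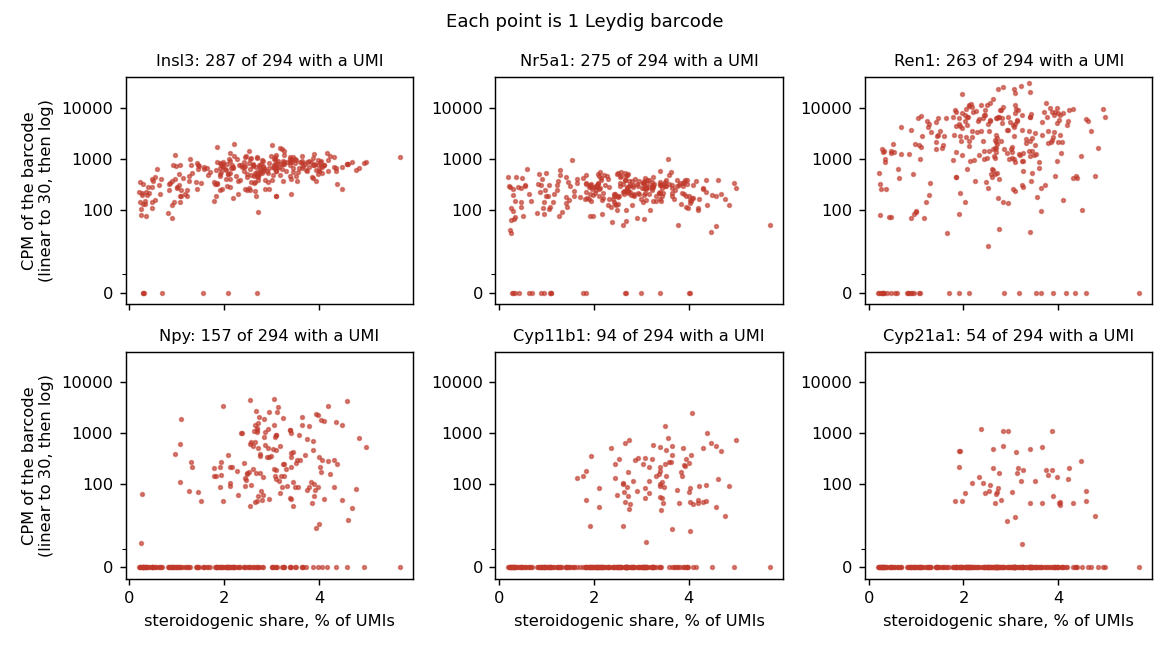
Level of *Insl3*, *Nr5a1*, *Ren1*, *Npy*, *Cyp11b1* and *Cyp21a1* in each of the 294 Leydig barcodes (y axis, CPM of the barcode, linear to 30 and then log) against its share of UMIs in the 4 steroidogenic genes (x axis, percent). *Insl3* is found along the whole range, whereas *Cyp11b1* and *Cyp21a1* appear from shares of 1.65% and 1.83% upward.

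Sertoli transcripts other than those of the rule were not evenly low. Of 13 compared with all other barcodes, which include the Sertoli-rich ones, 8 were at least 2-fold lower and 1, *Aldh1a1*, higher. The shares over all genes were 21.8% and 9.15%. With at least 10 CPM in both sets, 2 of 7 were lower and 1 higher. Against stromal barcodes 7 of 8 were at least 2-fold higher and 1 lower, with a median ratio of 12.6, beside 11.4% and 20.6% of all genes. All 4 with at least 10 CPM in both sets were higher. *Aldh1a1*, which makes retinoic acid, was at 1657 CPM in Leydig, 1186 in Sertoli-rich and 68.1 in stromal barcodes, with a median of 28.5 UMIs per Leydig barcode. *Clu*, the clusterin gene, was at 614 CPM in Leydig, 2489 in Sertoli-rich and 20.9 in stromal barcodes. *Defb19*, a beta-defensin gene of fetal Sertoli cells, was at 528, 3254 and 19.9 CPM in the same order. The level of *Clu* was thus 4.06-fold lower than in Sertoli-rich barcodes and that of *Defb19* 6.17-fold. *Amh*, which was used to form the sets, was at 4.49 CPM in Leydig, 1775 in Sertoli-rich and 6.54 in stromal barcodes.

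In the 83 Leydig barcodes with no UMI of any Sertoli or germ gene of the rule, *Aldh1a1* was at 1678 CPM. *Clu*, at 375 CPM, and *Defb19*, at 379.6, were lower there than in all Leydig barcodes. So were *Inhbb*, at 22.1 against 41.2 CPM in all Leydig barcodes, and *Hsd17b1*, at 0.788 (1 UMI) against 6.73. *Mmd2*, at 57.5 CPM, and *Hsd17b3*, at 3.15 CPM (4 UMIs), were not lower. These 83 were chosen after the data were seen, and they were shallower, with a median of 15385 UMIs. The median number of Sertoli genes of the rule also rose with the steroidogenic share, from 0 in the lowest to 1 in the highest of the 4 tiers described below. *Clu* and *Defb19* rose over the same tiers. The part of the share in these differences was not tested. In the other direction, the steroidogenic transcripts of Sertoli-rich barcodes sat mostly in few barcodes, to an extent that differed by gene. In stromal barcodes, which all have a share under 0.2%, *Cyp11a1* had a UMI in 12.0%. Of the 2565 *Cyp11a1* UMIs in Sertoli-rich barcodes, 91.4% were in 10 with a share of at least 0.2%. Without these 10 the level was 13.9 CPM, near the 11.8 CPM of stromal barcodes. The 10 also held 93.3% of the *Cyp17a1*, 62.6% of the *Star* and 70.9% of the *Hsd3b1* UMIs. Without them *Star* was at 10.5 and *Hsd3b1* at 17.6 CPM, against 6.36 and 6.71 CPM in stromal barcodes.

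Stromal genes were lower in Leydig than in stromal barcodes, with 16 of 17 beyond those of the comparison at least 2-fold lower and none higher (median ratio 0.0985), and 13 of the 14 with at least 10 CPM in both sets lower. The 15 lowest ratios among genes with at least 100 CPM in stromal barcodes were those of *Hbb-y*, *S100a6*, *Alcam*, *Dcn*, *Csrp1*, *Mmp2*, *Ednra*, *Sostdc1*, *Lsp1*, *Col1a1*, *Hmcn1*, *Wt1*, *Hes1*, *Rarres2* and *Vcan*. Among them were *Col1a1*, a collagen gene, at 74.98 against 997 CPM and *Dcn*, the decorin gene, at 50.6 against 812. *Hes1*, a target of Notch signalling, was at 9.28 against 118 CPM. Peritubular myoid genes had 5 of 7 lower, and 3 of the 4 with at least 10 CPM in both sets, beside 20.6% of all genes compared. *Acta2*, smooth muscle actin, was at 93.7 against 929 CPM. For some genes what remained came from few barcodes: 93.9% of the *Acta2* UMIs and 93.2% of those of *S100a6* were in the 10 Leydig barcodes that held most of them. As a list, the stromal genes beyond those of the comparison had a UMI in 286 of the 294 barcodes, with a median of 7 UMIs. The 10 deepest barcodes, which are not chosen by these genes, held 34.9% of their UMIs. *Sfrp1*, a secreted WNT inhibitor and a stromal gene of the comparison, went the other way at 353 against 215 CPM. The low value of *Hbb-y* rests on stromal barcodes rich in hemoglobin, since 5 of them held 28348 of its 28773 UMIs.

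**Figure D4:**
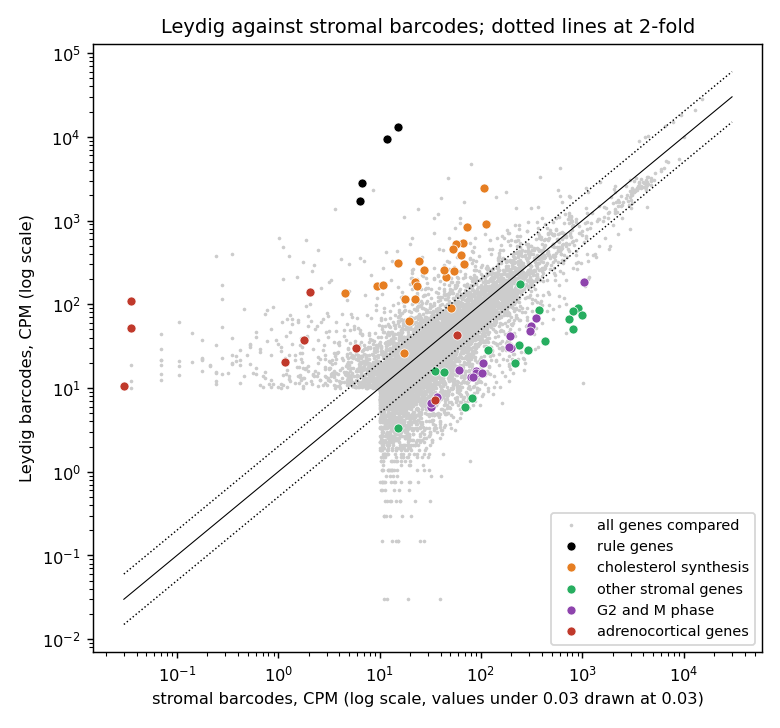
Level of each of the 9062 genes compared in Leydig (y axis, CPM, log scale) against stromal barcodes (x axis, CPM, log scale, values under 0.03 drawn at 0.03), with the solid line at equal levels, dotted lines at 2-fold and 5 gene lists in colour. Cholesterol synthesis genes lie above the upper dotted line with 2 exceptions, and the other stromal genes and the genes of G2 and M phase lie below the lower one with 1 and 0 exceptions.

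Cell division genes were low in Leydig barcodes. Against all other barcodes 14 of 16 S phase genes and 17 of 17 genes of G2 and M phase were at least 2-fold lower, beside 21.8% of all genes. The median ratios were 0.330 and 0.202. With at least 10 CPM in both sets, 11 of the 12 and 14 of the 14 were lower. *Top2a* was at 69.3 against 290.0 CPM and *Mki67* at 31.0 against 144, and 67.8% of the *Top2a* UMIs were in 10 barcodes. At 5000 UMIs, 31 of 283 Leydig barcodes (11.0%, 7.57 to 15.2%) had at least 3 of the 17 genes, against 45.5% of stromal, 39.3% of Sertoli-rich and 93.3% of germ-rich barcodes. *Cdkn1c*, the cell cycle inhibitor p57, was at 2199.9 CPM against 166, with 0 to 386 UMIs per barcode and a median of 37, while *Cdkn1a* was at 0.599 against 6.92 CPM and *Cdkn1b* at 17.2 against 25.01. Thinned shares of this kind count barcodes with RNA of these genes and are not counts of dividing cells.

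Variation among the Leydig barcodes was read by ranking them on their steroidogenic share, splitting them into 4 tiers of equal size and comparing the highest tier (73 barcodes, 3.39 to 5.71%) with the lowest (74 barcodes, 0.201 to 1.71%), on UMIs without the 4 genes. Of 2846 genes compared, those with at least 50 CPM over all Leydig barcodes, 284 (9.98%) were at least 2-fold higher and 202 (7.1%) at least 2-fold lower in the highest tier. Cholesterol synthesis genes were higher together, with 21 of 23 higher and none lower (median ratio 4.004). From the lowest to the highest tier *Fdps* was at 692, 2127, 2951 and 3669 CPM, and *Hmgcs1* at 283, 787, 1109 and 1321. *Insl3* was at 282, 609, 668 and 753 CPM, *Fdx1* at 1765, 4521, 5604 and 6609, and *Scarb1* at 379, 930, 1769.9 and 1563. The genes of the luteinizing hormone receptor and of NR5A1 differed less between tiers: *Lhcgr* was at 165, 327, 340.4 and 341 CPM and *Nr5a1* at 181, 248.5, 283 and 242.

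Among these genes, the 10 with the highest ratio of the highest to the lowest tier were *Cyp21a1*, *Cyp11b1*, *Gpha2*, *Aldoc*, *Npy*, *Clps*, *H2-K1*, *Reep6*, *Acss2* and *C4b*. *Cyp21a1* had no UMI in the lowest tier and was at 74.4, 65.6 and 63.2 CPM in the others, the last at least 27.8-fold more than the 2.28 CPM that 3 UMIs would give. *Cyp11b1* went from 3.04 to 248 CPM, a ratio of 81.9 (31.8 to 302), and *Npy* from 28.8 to 523. *Gpha2*, a glycoprotein hormone subunit gene, was at 6.83 and 153 CPM, and *Acss2*, which makes acetyl-CoA, at 11.4 and 117. The median depth of the tiers also differed, at 14318.5, 16379.5, 20471 and 22900 UMIs, and so did the mitochondrial share, at 7.44, 10.3, 13.3 and 15.1%. Their part in these ratios was not tested.

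Among the same genes, the 10 with the lowest ratio were *Acta2*, *Myl9*, *Cxcl12*, *Dcn*, *Ptn*, *Col1a1*, *Top2a*, *Pclaf*, *Mfap2* and *Igfbp5*, of muscle, matrix, stromal signalling and replication. *Top2a* was at 280.0, 25.3, 19.8 and 11.5 CPM over the tiers, *Igfbp5* at 213, 75.1, 19.2 and 10.5, and *Acta2* at 411, 21.1, 22.6 and 7.53. The 3 deepest barcodes of the lowest tier held 24.0% of its UMIs. Without the 3 deepest of each tier the 10 genes were still at least 2-fold lower in the highest tier, with ratios from 0.0126 to 0.268, but *Acta2* was at 28.0 CPM in the lowest tier, *Igfbp5* at 75.9, *Ptn* at 63.9, *Col1a1* at 44.96 and *Dcn* at 41.97, while *Top2a* was at 237. At 5000 UMIs, at least 3 genes of G2 and M phase were seen in 31.9, 6.85, 1.45 and 4.17% of the barcodes of the tiers. The 8 genes of the stromal comparison summed to 2512, 1396, 765 and 560.2 CPM, and the 8 Sertoli genes, which the rule limits, to 68.3, 51.3, 66.2 and 68.3 CPM. The 18 other Sertoli genes summed to 1715, 2728, 3319 and 3902 CPM over the tiers, among them *Clu* at 156, 442, 742 and 980 CPM and *Defb19* at 139, 435, 619.7 and 818. The median over barcodes of the stromal sum was 2094, 1331, 666 and 528 CPM, whereas the median number of the 8 genes with a UMI was 4, 4, 4 and 3. Without the 3 deepest barcodes of each tier the stromal sums were 2077, 1371, 768 and 545 CPM. Among all 294 barcodes, 13 had a doublet score among the highest of the library, and the part of barcodes holding 2 cells in these ratios was not tested.

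**Figure D5:**
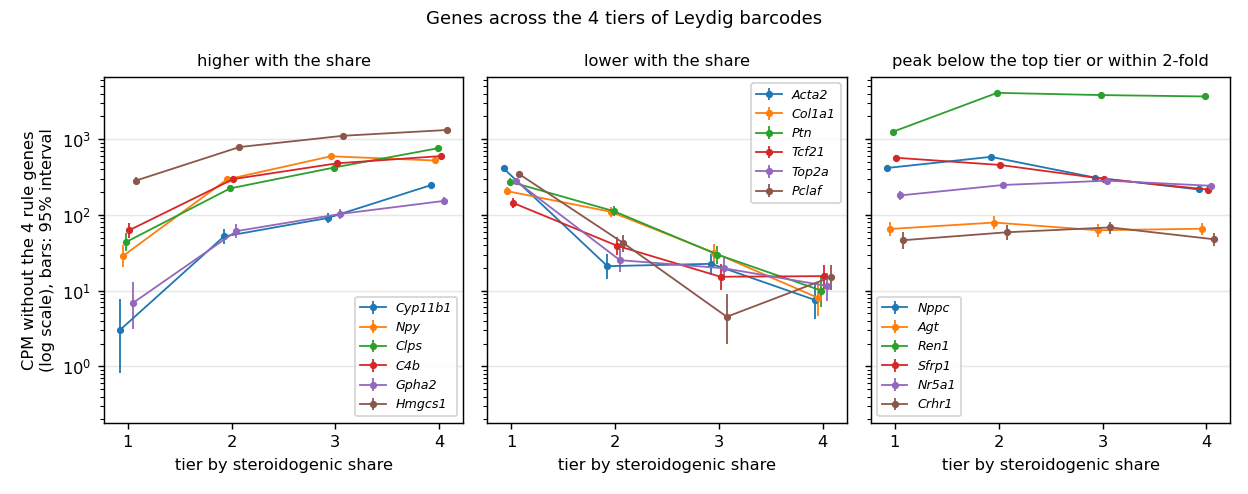
Levels (y axis, CPM over UMIs without the 4 steroidogenic genes, log scale, bars for exact Poisson 95% intervals) in the 4 tiers of Leydig barcodes ordered by steroidogenic share (x axis), for 6 genes in each of 3 panels. *Hmgcs1* and *Cyp11b1* are higher and *Top2a* and *Acta2* lower in the highest than in the lowest tier, while *Nppc* peaks in between.

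A few genes peaked at intermediate shares, although the peak of *Wnt6* was slight without the deepest barcodes. In bands of the share from 0.2 to 0.5%, 0.5 to 1%, 1 to 2%, 2 to 3% and above 3%, with 23, 22, 50, 90 and 109 barcodes, *Nppc* was at 114, 536, 635, 470.1 and 218 CPM. *Sfrp1* was at 451, 864, 525, 372 and 222 CPM, and *Wnt6* at 265, 521, 228, 141 and 34.8. *Cdkn1c* was highest from 2 to 3%, with 412, 1005, 1709.6, 2894 and 2344 CPM, and *Ren1* was at 383, 805, 3133, 3899 and 3557. In the lowest band the 2 deepest barcodes held 39.8% of the UMIs, and without the 2 deepest of each band *Nppc* was at 160 and 483 CPM in the lowest and the next, *Sfrp1* at 635 and 873, and *Wnt6* at 431 and 488. The stromal genes *Tcf21* and *Nr2f2* were at 243 and 379 CPM in the lowest band and 14.8 and 144 in the next. Those 2 barcodes held 116 of the 134 *Tcf21* UMIs of the lowest band, which was seen in 8 of its 23 barcodes, and 139 of the 209 *Nr2f2* UMIs, and without them the levels were 54.2 and 211 CPM. Outside the Leydig barcodes, the 22 barcodes with a share from 0.05 to 0.2% had 72.4 CPM of *Insl3*, 127 CPM of *Nr5a1* and 284 CPM of *Wnt6*, against 0.658, 19.4 and 40.4 CPM in the 2487 barcodes under 0.02%.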

How the data were processed

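The control library was prepared with the 10x 3′ v3 kit and sequenced on an Illumina HiSeq instrument. The authors deposited unnormalised UMI counts per gene and cell barcode, aligned to mm10 with a YFP sequence added. The processing notes name Cell Ranger 3.0.2 and 3.1.0, the matrix header names 3.1.0 and the methods a later version. Gene positions were those of GENCODE on GRCm38, another name of mm10, and promoters those of RefSeq on GRCm38.p6.

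Barcodes, marker lists and comparisons were chosen with earlier results of these data known. UMI counts were summed over the barcodes of a set and scaled to 1000000 UMIs (CPM). A gene was called higher or lower at a ratio of at least 2, among genes with at least 10 CPM in either set, or, between tiers, with at least 50 CPM over all Leydig barcodes. Named genes were those of the lists, the 25 highest ratios to all other barcodes (at least 50 CPM in Leydig barcodes), the 15 lowest ratios to stromal barcodes (at least 100 CPM there) and the 10 highest and 10 lowest ratios between the highest and the lowest tier (at least 50 CPM over all Leydig barcodes), besides the genes used to form the sets. *Wnt6* was named after its values were seen. Many genes of the lists are counted but not reported singly here. Intervals are exact 95% Poisson (levels) or Clopper-Pearson (shares) intervals. Where a set had no UMI, 3 UMIs were taken as its limit. Shares were also computed after thinning to 5000 UMIs, which left out 11 Leydig barcodes. No test was made, because barcodes of 1 library are not replicates. Doublets were kept, and as an alternative the 148 barcodes with the highest share of simulated doublets among their neighbours were removed, 13 of them Leydig barcodes. Promoter motifs were chosen after the levels were known. Other limits on the share, on genes and on Sertoli and germ genes, other scalings and other filters were tried as alternatives, and those without few selected barcodes were added after the data were seen. The arithmetic of the comparison was run on simulated counts for Leydig against all other barcodes, where 200 of 200 changed genes and 0 of 8743 unchanged genes were called. All changed genes were set beyond the 2-fold limit, and the pooled counts had Poisson error only. Spread between barcodes, doublets and single deep barcodes were not simulated, so the result does not show how the comparison behaves with them. The steps were run in Python 3.11.15 with scipy 1.17.1, scikit-learn 1.9.0 (doublet scores), matplotlib 3.10.9, pandas 2.3.3 and numpy 2.4.6.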

Additional observations from a re-analysis of the deposited data

Results flagged for a closer look

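Leydig transcripts were also found in barcodes outside the comparisons. Among the 1120 barcodes with fewer than 1000 genes, 39 had a steroidogenic share of at least 0.2%, with a median of 1105 UMIs. They held 39 *Insl3* UMIs, in 25 of them, a level of 677 CPM (481 to 925), against 1 UMI (0.232 CPM) in the other 1081 small barcodes. *Hbb-bs* was at 77574 CPM in these 39, from 9 barcodes.

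The 12 barcodes that met the share but had more than 4 Sertoli or germ genes held 162 *Insl3* UMIs (236 CPM, 201 to 276) and 258 CPM of *Amh*. They were deep, with a median of 38883 UMIs.

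The YFP reporter, which the study states to be absent from control gonads, had 30 UMIs in 26 of the 294 Leydig barcodes (4.49 CPM, 3.03 to 6.41). Its level in all other barcodes was 2.06 CPM.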

How the results depend on the processing

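The number of Leydig barcodes lay between 215, with barcodes beyond 3 median absolute deviations left out, and 321, with barcodes of at least 500 genes, and was 83 when no Sertoli or germ gene was allowed. Genes at least 2-fold higher and lower than in all other barcodes numbered 452 and 546 with at least 50 CPM, 1608 and 7475 with no filter, and 344 and 788 at a ratio of at least 4. Against stromal barcodes these were 516 and 610, 2357 and 5546, and 460 and 802. With 2 tiers in place of 4, 84 genes were higher and 92 lower in the higher one, and the ratios of *Insl3* and *Ren1* were 1.57 and 1.36 where those of 4 tiers passed 2. The ratio of *Nppc*, 0.520 as reported, was 0.419 with barcodes of at least 10000 UMIs and 0.431 without the 10 deepest. *Insl3* was at 621 CPM with a share of at least 0.4%, 620.39 CPM without the highest doublet scores, 695 CPM on UMIs without the 4 genes and mitochondrial genes, and 615 CPM without the 10 deepest Leydig barcodes, and it was seen in 80.1% of them at 3000 UMIs. Scaling on UMIs without the 4 genes and mitochondrial genes moved the median log2 ratio of all genes by 0.12 against all other and 0.15 against stromal barcodes. Of 62 median ratios of gene lists under 3 other settings, 1 turned its direction, that of erythroid genes to stromal barcodes, from 0.71 to 1.10 with the mean over barcodes. Through 14 settings 68 named genes were followed. The 15 with the lowest ratios to stromal barcodes were followed against stromal and the rest against all other barcodes. Of the 68, *Defb19* crossed the 2-fold limit in 3 (without barcodes beyond 3 median absolute deviations, with the mean over barcodes, and in the 83 barcodes, with ratios of 0.469, 0.486 and 0.420) and *Hbb-bs* in 1, without the 5 barcodes richest in hemoglobin, with a ratio of 0.121. No paired analysis was possible because there was 1 library, and no replicate could be left out. Depth limits genes under a few CPM, and a level covers counting error only. The 10 Leydig barcodes with the most UMIs held 13.1% of all their UMIs.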

Other observations

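Some gene groups differed little from all other barcodes or came from few Leydig barcodes. Of 19 nuclear genes of oxidative phosphorylation, 4 were at least 2-fold higher than in all other barcodes and none lower, beside 9.15% and 21.8% of all genes. Their median ratio was 1.497. *Uqcrq*, a subunit of complex III, was at 649.8 CPM against 267 and *Atp5j*, of the ATP synthase, at 1197 against 593. Of 12 imprinted genes, 1, *Cdkn1c*, was higher and 4 lower, beside 9.15% and 21.8% of all genes, among them *Dlk1* at 83.1 against 407 CPM and *Mest* at 101 against 374. Against stromal barcodes 1 of the 12 was higher and 7 were lower, beside 11.4% and 20.6% of all genes, with a median ratio of 0.403. Of 9 immediate early and stress genes, 3 were higher than in all other barcodes and none lower, beside 9.15% and 21.8% of all genes. Of the 8 with at least 10 CPM in both sets, 2 were higher. The heat shock genes *Hspa1a* and *Hspa1b* were at 197 against 12.0 CPM and 158 against 11.6. *Hspa1a* and *Hspa1b* are near-identical copies.

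Of 10 further germ cell genes, 8 had at least 10 CPM only in all other barcodes, and *Kit* only in Leydig barcodes, at 37.1 against 5.72 CPM. *Kit* is also known from Leydig cells. Among erythroid genes, *Hbb-bs* was at 3068 against 3304 CPM, with 97.6% of its UMIs in 10 Leydig barcodes. The 7 pericyte genes summed to 29.6 CPM in Leydig and 98.1 CPM in stromal barcodes, and the 8 coelomic epithelium genes to 21.3 and 186 CPM, of which *Aldh1a2* made 19.6 CPM in Leydig barcodes. *Vsnl1*, a calcium sensor gene, was at 257 CPM in Leydig and 13.2 CPM in all other barcodes. It was not limited to Leydig barcodes, with 284 CPM in the 22 barcodes with a share from 0.05 to 0.2%. Within Leydig barcodes it was at 410 CPM from 0.5 to 1% and 197 CPM above 3%.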
